A study of Mus musculus with 16 samples.

Results

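The genes described here encode the CCCH zinc finger proteins that shorten the life of inflammatory mRNAs. They are 3 Regnase genes (Zc3h12a, Zc3h12c and Zc3h12d), 2 Roquin genes (Rc3h1 and Rc3h2) and 3 ZFP36 genes (Zfp36, Zfp36l1 and Zfp36l2). They were chosen by gene name, and all 8 were found among the 54532 genes of the count table. RNA was sequenced from mouse CD8+ T cells. They were taken as naive cells from C57BL/6J spleens and activated repetitively in culture over 4 days so that they retained TCF1, a transcription factor of stem-like T cells. No group carried a gene deletion, and all groups shared this culture and low-dose IL-2 at 85 U/ml. Cells spent 1 h with prostaglandin E2 (PGE2) at 100 ng/ml or without it. They then received IL-2 alone for 4 h (unstimulated) or IL-2 with anti-CD3/CD28 beads at 1 bead per cell (stimulated). Each of the 4 groups (unstimulated untreated, unstimulated PGE2, stimulated untreated and stimulated PGE2) had 4 replicates, numbered 1 to 4. What replicates with the same number shared is not stated, and nothing says that replicates came from separate mice, so p-values cover the spread between these samples, which may be technical. The cells were a culture model at a single time point, and the values are steady-state mRNA levels, not decay rates or protein.

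These proteins act on the 3′ untranslated region (UTR) of mRNAs. ZFP36 proteins (tristetraprolin, or TTP, encoded by Zfp36, and its relatives ZFP36L1 and ZFP36L2) bind AU-rich elements, for which UAUUUAU is a typical core, and recruit the CCR4-NOT deadenylase, which removes the poly(A) tail. Regnase-1, encoded by Zc3h12a, is an RNase that cuts stem-loops, and Roquin-1 and Roquin-2 bind stem-loops of the same kind, typically with a 3-base loop such as UGU or UAU, and also recruit CCR4-NOT. In T cells these proteins restrain cytokine and costimulatory mRNAs, MALT1 cleaves Regnase-1 and the Roquins after T cell receptor engagement, and Zfp36l1 and Zfp36l2 are known for keeping developing lymphocytes quiescent.

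The mRNAs of several of these genes carry the same elements themselves. In the longest protein-coding transcript of each gene (GENCODE M21, GRCm38), UAUUUAU was found 3 times in the 3′ UTR of each ZFP36 gene, 3 times in Rc3h2, 2 times in Rc3h1 and Zc3h12c, and in neither Zc3h12a nor Zc3h12d. The 3′ UTR of Zfp36 is 774 bases long, which gives 3.88 heptamers per kb, and Zfp36l1 and Zfp36l2 held 1.63 and 1.65 per kb, against 0.311 per kb over 20871 protein-coding genes, of which 27.6% held at least 1. A UGU or UAU loop closed by at least 5 consecutive Watson-Crick pairs was found 1 time in Zc3h12a, 4 times in Rc3h1 and 2 times in Rc3h2, and in none of the other 5 genes; 10.7% of the genes held at least 1 (0.0851 per kb). Such matches are letters in a transcript and not shown binding sites. The windows below, in the sense direction of the mRNA and on GRCm38, show one heptamer (capitals) from each ZFP36 gene, so that the shared core and the different flanks can be read side by side.

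Zfp36, chr7:28376951-28376979, minus strand, 3′ UTR: uaugacgacuuUAUUUAUuguauuaagau

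Zfp36l1, chr12:80108422-80108450, minus strand, 3′ UTR: uuaucaaaacgUAUUUAUugccaaacuau

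Zfp36l2, chr17:84184914-84184942, minus strand, 3′ UTR: acuauuuaacuUAUUUAUuaucuugugaa

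Stem-loops are shown for Zc3h12a and for Rc3h1 and Rc3h2, whose loops (capitals) sit on stems of 7, 6 and 6 pairs.

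Zc3h12a, chr4:125118660-125118680, minus strand, 3′ UTR: agauuuaaaUAUuuuaaauga

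Rc3h1, chr1:160971658-160971676, plus strand, 3′ UTR: auaacuucUGUgaaguugc

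Rc3h2, chr2:37373807-37373825, minus strand, 3′ UTR: uuaacuucUGUgaaguugu

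Known targets are shown for comparison, because their levels are reported further on. Tnf, which encodes the cytokine TNF, held both kinds of element, with 8 heptamers and 1 stem-loop of 6 pairs. Csf2, the GM-CSF gene, held 9 heptamers, several of them overlapping. Nfkbid, which encodes an inhibitor-like regulator of NF-kB, held 2 stem-loops of 6 pairs and no heptamer.

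Tnf, chr17:35199671-35199699, minus strand, 3′ UTR: uauuuauuuauUAUUUAUuuauuugcuua

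Tnf, chr17:35199583-35199601, minus strand, 3′ UTR: auguuuucUGUgaaaacgg

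Csf2, chr11:54247325-54247353, minus strand, 3′ UTR: aaauauuuauuUAUUUAUuuauuuauuuu

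Nfkbid, chr7:30428400-30428418, plus strand, 3′ UTR: gugauuucUGUgaaaucga

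On GRCm38 the genes lie at chr4:125118423-125127840 (Zc3h12a), chr9:52111344-52168572 (Zc3h12c), chr10:7832470-7870396 (Zc3h12d), chr1:160906418-160974978 (Rc3h1), chr2:37370069-37422903 (Rc3h2), chr7:28376784-28380253 (Zfp36), chr12:80107754-80113013 (Zfp36l1) and chr17:84183931-84187947 (Zfp36l2). All 8 are protein-coding. The use of strand in counting is not stated, so reads cannot be told apart where genes overlap on opposite strands. Zfp36l1 shares 55.9% of its exon bases with the opposite-strand lincRNA gene Gm26669, which was counted at 0.173 to 0.721 CPM (counts scaled to library size, the usual per-library unit that ignores gene length). This value is scaled to the library total alone, and all other CPM values also use edgeR's TMM factors. How reads in the shared bases were assigned is not stated either, so the levels and family shares of Zfp36l1 below may be affected. The other overlaps were small, the largest that of Zfp36 with the antisense gene Gm44710 (3.602% of exon bases).

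Libraries held 22678254 to 42950763 counts. All 8 CD8 T cell markers (Cd3e, Cd3d, Cd8a, Cd8b1, Tcf7, Cd28, Cd2 and Lck) exceeded 1 CPM, and their summed level was 4274 to 5393 CPM in unstimulated untreated, 3756 to 4779 in unstimulated PGE2, 3502 to 3631 in stimulated untreated and 3182 to 3353 CPM in stimulated PGE2 samples. Of 5 B cell markers 2 had a mean above 1 CPM (Cd79a and Cd79b), with sums of 12.0 to 20.99 CPM in unstimulated untreated and 4.92 to 11.7 CPM in stimulated untreated samples, and Ms4a1 and Pax5 had means of 0.197 and 0.206 CPM. Of 6 myeloid markers only Cd68 exceeded a mean of 1 CPM (sums 3.33 to 6.87 CPM over all samples), and Lyz2 averaged 0.00611 CPM. Of 4 NK cell markers only Eomes, which CD8+ T cells also express, did so (141 ± 31.5 CPM, SD, in stimulated untreated, 80.4 ± 41.3 in stimulated PGE2, 18.02 ± 4.87 in unstimulated untreated and 8.13 ± 2.82 CPM in unstimulated PGE2 samples), and Ncr1 had 0 counts in every sample. Of 4 CD4 T cell markers up to 3 exceeded 1 CPM (sums 17.99 to 40.5 CPM), with Cd4 at 0.415 CPM on average, and erythroid markers summed to at most 0.820 CPM. The part of B cell, CD4 T cell marker and Eomes transcripts in the results below was not tested. In bulk RNA, fewer cells of a type and less RNA per cell cannot be told apart.

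Levels per length, in FPKM (counts scaled to library size and to kb of exon, deposited by the authors), placed Zfp36l2 highest in every group. In unstimulated untreated cells Zfp36l2 stood at 104 ± 17.6 FPKM (SD, n = 4 here and throughout), followed by Zfp36 at 21.6 ± 2.62, Zfp36l1 at 19.2 ± 2.80, Zc3h12d at 19.2 ± 1.35, Zc3h12a at 8.18 ± 0.289, Rc3h1 at 6.41 ± 0.810, Rc3h2 at 2.90 ± 0.246 and Zc3h12c at 0.0278 ± 0.0100 FPKM. The ranges of Zfp36, Zfp36l1 and Zc3h12d overlapped with their neighbours in that order, and the others did not. Regnase-3, encoded by Zc3h12c and mainly known from macrophages, was thus close to absent, with 3 to 10 counts per library.

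The order changed with stimulation. In stimulated untreated cells Zfp36l2 (42.8 ± 2.84 FPKM) and Zfp36l1 (39.6 ± 8.01 FPKM) overlapped at the top. Zc3h12a (26.5 ± 2.93), Zfp36 (24.3 ± 1.29) and Zc3h12d (23.0 ± 3.28 FPKM) overlapped below them. Rc3h1 (10.3 ± 1.18), Rc3h2 (2.88 ± 0.285) and Zc3h12c (0.223 ± 0.0676 FPKM) followed in the same order as before, each apart from its neighbours. In stimulated PGE2 cells Zc3h12d, at 32.3 ± 6.60 FPKM, took the place after Zfp36l2 (50.8 ± 1.70 FPKM), with a range that overlapped that of Zfp36l1 (28.6 ± 4.43 FPKM).

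**Figure D1:**
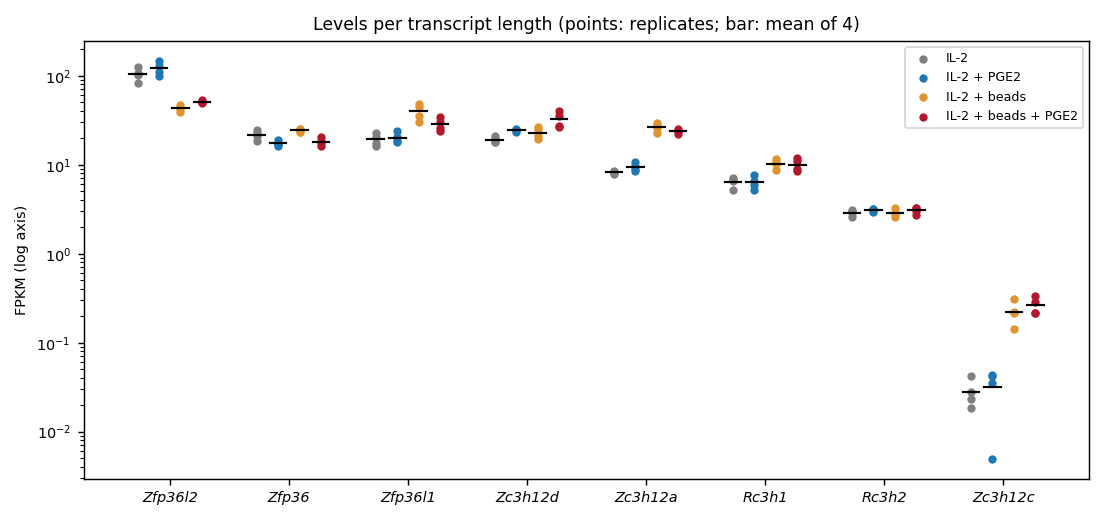
FPKM of the 8 genes on a log axis, with 1 point per replicate, colours for the 4 groups and a bar at each mean of 4. Zfp36l2 is highest in each group, at means of 42.8 to 121 FPKM, and Zc3h12c lowest, at 0.0278 to 0.264 FPKM.

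Stimulation addresses how T cell receptor and CD28 engagement changed these genes. Without PGE2, 5 of the 8 genes rose and 1 fell at an adjusted p below 0.05 (edgeR quasi-likelihood test, two-sided, Benjamini-Hochberg over all genes tested), where 31.7% of 14205 genes tested rose and 34.8% fell. Of these, 4 passed the study's rule for differentially expressed genes (DEGs), which also asks for a fold change of at least 2, against 23.2% of all genes. With PGE2 present the counts were again 5 up and 1 down, with 3 DEGs, where 32.5% of 14507 genes rose, 31.7% fell and 22.1% were DEGs. Both sets of counts include Zc3h12c, which passed the filter on low counts only through its stimulated libraries. The median log2 fold change of the 8 genes was 0.46 without and 0.49 with PGE2, beside -0.03 and 0.00 over all genes tested. The 2 stimulation comparisons share no sample, but each shares its samples with the PGE2 comparisons.

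Among the Regnases, Zc3h12a had 24.4, 23.8, 25.0 and 26.003 CPM in unstimulated untreated replicates 1 to 4 and 86.6, 77.6, 86.5 and 70.1 CPM in stimulated untreated ones. Every stimulated sample lay above every unstimulated one, and the level rose 3.21-fold, or by 1.68 on the log2 scale (SE 0.0871, edgeR adjusted p = 1.74e-08). With PGE2 it was 31.8, 29.2, 26.7 and 25.6 CPM before and 75.9, 73.3, 72.4 and 66.7 CPM after stimulation, again without overlap. That rise was 1.37 on the log2 scale (SE 0.0843, edgeR adjusted p = 1.19e-06).

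Zc3h12c held 3, 6, 6 and 10 counts in unstimulated untreated libraries and 82, 42, 26 and 39 counts in stimulated untreated ones, which is 0.200 and 1.60 CPM on average. The groups did not overlap, and the level rose by 2.95 on the log2 scale (SE 0.340, edgeR adjusted p = 7.04e-06) without and 3.02 (SE 0.388, edgeR adjusted p = 5.53e-05) with PGE2. Among the unstimulated samples Zc3h12c did not pass the filter on low counts, so it entered these tests only through its stimulated libraries. The filter thus favoured a rise, and these p-values lend it no support of their own. Zc3h12c remained the lowest of the 8 genes after this rise.

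Zc3h12d, the gene of Regnase-4 (also called TFL), a lymphocyte-enriched relative, had 78.0, 77.3, 84.1 and 90.5 CPM in unstimulated untreated and 82.0, 88.7, 110 and 115 CPM in stimulated untreated replicates. These groups overlapped. The rise of 0.24 on the log2 scale (SE 0.101) was called at an edgeR adjusted p of 0.0485, and the call was lost without any of 5 single libraries, with adjusted p from 0.0885 to 0.152 (unstimulated untreated replicates 1, 2 and 3 and stimulated untreated replicates 3 and 4). It was also lost with upper-quartile scaling (adjusted p = 0.267), with at least 10 counts in every sample (0.0504), in 3 limma fits (0.0534 to 0.109) and in 1 fit of all 16 samples (0.0803), so 7 of 18 alternatives called it. With PGE2, at 103, 98.8, 104 and 107 CPM before and 112, 118, 152 and 175 CPM after stimulation, the groups were apart and the rise was 0.44 (SE 0.122, edgeR adjusted p = 0.00836), which upper-quartile scaling took to 0.32 (adjusted p = 0.0679).

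The Roquin genes differed from each other. Rc3h1 had 84.4, 79.9, 62.8 and 77.3 CPM in unstimulated untreated and 134, 125, 105 and 124 CPM in stimulated untreated replicates, without overlap. Its rise was 0.67 on the log2 scale (SE 0.0997, edgeR adjusted p = 6.41e-05). With PGE2 its rise was 0.70 (SE 0.133, edgeR adjusted p = 0.000788). Rc3h2, by contrast, lay between 53.3 and 67.9 CPM in all 16 samples, and its log2 fold changes were -0.02 (SE 0.0834, edgeR adjusted p = 0.835) without and 0.03 (SE 0.0770, edgeR adjusted p = 0.788) with PGE2.

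The ZFP36 genes moved in different directions. Zfp36l2 had 459, 399, 377 and 304 CPM in unstimulated untreated and 168, 158, 161 and 149 CPM in stimulated untreated replicates. All stimulated samples lay below all unstimulated ones, and the level dropped by 1.29 on the log2 scale (SE 0.109, edgeR adjusted p = 4.82e-07), to 0.409 of the unstimulated level. With PGE2 it dropped by 1.21 (SE 0.104, edgeR adjusted p = 3.93e-06).

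Zfp36l1 had 70.3, 64.6, 55.3 and 51.7 CPM in unstimulated untreated and 147, 138, 114 and 97.7 CPM in stimulated untreated replicates. It rose without overlap by 1.03 (SE 0.136, edgeR adjusted p = 2.32e-05). With PGE2 the rise was 0.54 (SE 0.120, edgeR adjusted p = 0.00227), below the DEG fold. Zfp36, an immediate-early gene in many cell types, did not pass the test at 4 h, with log2 fold changes of 0.16 (SE 0.0850, edgeR adjusted p = 0.123) and 0.10 (SE 0.0840, edgeR adjusted p = 0.337). With the replicate number as a block, the value of 0.16 without PGE2 was called (edgeR adjusted p = 0.0482), and it was also called without unstimulated untreated replicate 1 (0.21, edgeR adjusted p = 0.0412).

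**Figure D2:**
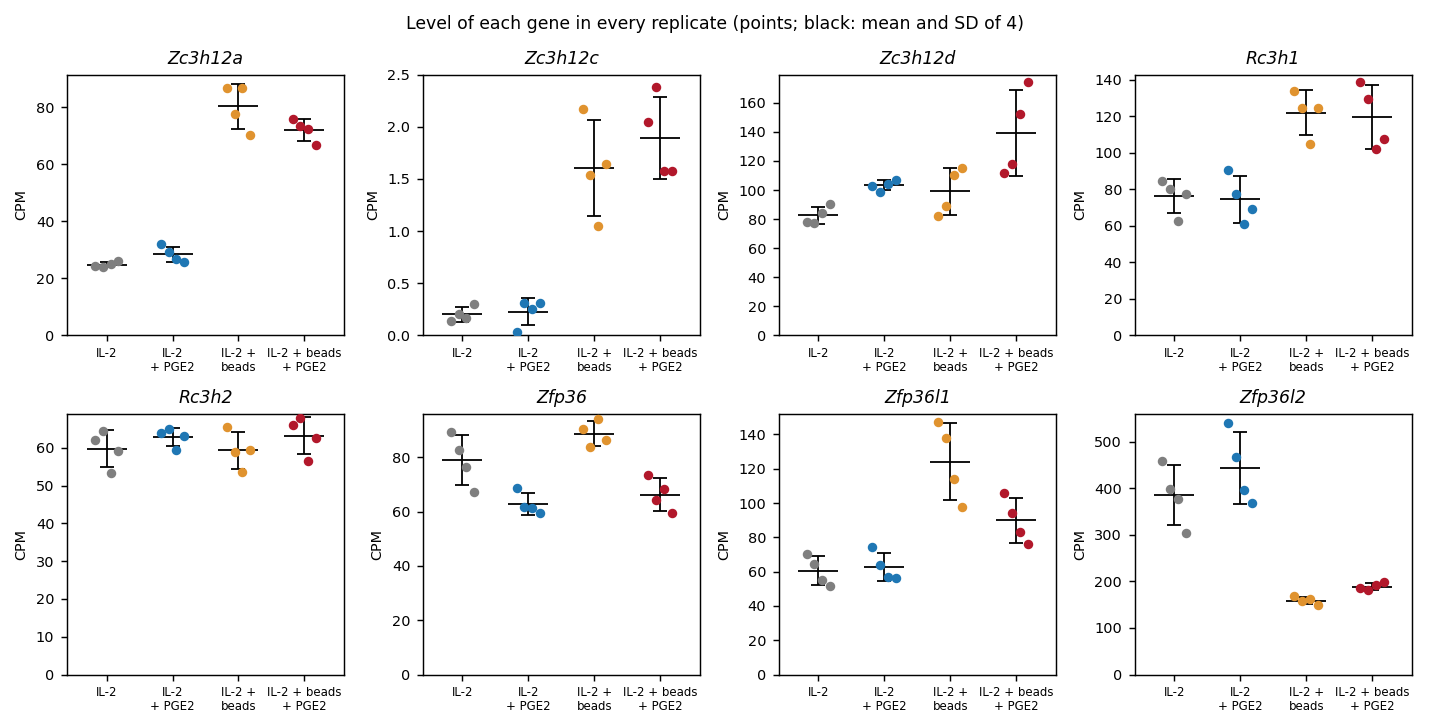
CPM of each gene in all 16 samples, with 1 point per replicate (replicates 1 to 4 from the left within a group) and black bars for the mean and SD of 4; axes start at 0. Zc3h12a, Zc3h12c, Rc3h1 and Zfp36l1 are higher and Zfp36l2 is lower in each stimulated sample than in each unstimulated sample of the same PGE2 treatment. The share of all genes separated in this way was not counted. On stimulation 31.7% of all genes were called higher and 34.8% lower without PGE2, and 32.5% and 31.7% with it (edgeR). Zc3h12c passed the filter on low counts only through its stimulated libraries.

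The comparisons with PGE2 ask what prior exposure to this prostaglandin changed. In stimulated cells, Zfp36l2 rose and Zfp36 fell, so 1 of 8 genes was called in each direction, where 6.04% of 13922 genes tested rose and 3.8% fell. None of the 8 was a DEG, against 1.75% of all genes, and the median log2 fold change was 0.04 beside -0.01 over all genes. In unstimulated cells 7 of the 8 were tested, since Zc3h12c did not pass the filter on low counts. Of these, Zc3h12d rose and Zfp36 fell, where 12.9% of 14505 genes rose and 15.5% fell. None was a DEG (3.38% of all genes), and the median was 0.09 beside -0.0010 over all genes.

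Same-numbered replicates correlated in their deviations from the group means in both PGE2 comparisons. In stimulated cells, however, number 2 correlated less with its own number (r = 0.190) than with another (0.247). The pairing is thus uncertain there, and the block values for stimulated cells depend on it. Each comparison was also fitted with the number as a block. That fit called 19.1% of all genes higher and 20.7% lower in stimulated cells, and 23.6% higher and 24.2% lower in unstimulated cells. Among the 8 genes it called 2 higher and 3 lower in stimulated cells, and 3 higher and 1 lower in unstimulated cells. They are given below gene by gene.

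Zfp36 was called lower with PGE2 in both states. In stimulated cells it had 90.5, 83.6, 94.2 and 86.5 CPM without and 73.3, 64.3, 68.1 and 59.3 CPM with PGE2. Every PGE2 sample lay below every untreated one, and the level dropped by 0.41 on the log2 scale (SE 0.0767, edgeR adjusted p = 0.00922). That is 0.751 of the level without PGE2. The call held in all 8 fits that left out 1 library, with adjusted p from 0.00643 to 0.0333.

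In unstimulated cells Zfp36 had 89.1, 82.5, 76.5 and 67.4 CPM without and 68.7, 61.5, 61.3 and 59.5 CPM with PGE2. The groups overlapped by a single sample on each side, untreated replicate 4 and PGE2 replicate 1. The level dropped by 0.31 (SE 0.0792, edgeR adjusted p = 0.0130), and this call was lost without untreated replicate 2 (adjusted p = 0.0663) or PGE2 replicate 2 (adjusted p = 0.0583), and by limma without a filter (adjusted p = 0.0797).

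Zfp36l2 differed in the opposite direction from Zfp36. In stimulated cells it had 168, 158, 161 and 149 CPM without and 186, 181, 191 and 198 CPM with PGE2, without overlap. The rise was 0.26 on the log2 scale (SE 0.0607, edgeR adjusted p = 0.0271). The call was lost without stimulated untreated replicate 2, 3 or 4 or stimulated PGE2 replicate 3 or 4, with adjusted p from 0.0601 to 0.0880. It was also lost without a filter on low counts (adjusted p = 0.0753), in 3 limma fits (0.0539 to 0.0684) and in 1 fit of all 16 samples (0.157). In unstimulated cells the groups, at 304 to 459 CPM without and 368 to 540 CPM with PGE2, overlapped widely. The value of 0.22 there (SE 0.129) had an edgeR adjusted p of 0.238, and 0.000194 with the replicate block, since PGE2 was higher under each of the 4 numbers.

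Zfp36l1 had 147, 138, 114 and 97.7 CPM without and 106, 94.0, 83.2 and 76.3 CPM with PGE2 in stimulated cells, lower under each number although the groups overlapped. Its log2 difference of -0.46 (SE 0.138) missed the threshold (edgeR adjusted p = 0.0634), and passed it with the replicate block (-0.45, SE 0.0429, edgeR adjusted p = 2.72e-05). The call was also made without stimulated untreated replicate 4 (adjusted p = 0.0273) or stimulated PGE2 replicate 1 (adjusted p = 0.0370), by DESeq2 (0.0235), without a filter on low counts (0.0360) and in 1 fit of all 16 samples (0.0294). In unstimulated cells the value was 0.07 (SE 0.103, edgeR adjusted p = 0.657).

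Among the Regnases, Zc3h12d was higher with PGE2. In unstimulated cells it had 78.0 to 90.5 CPM without and 98.8 to 107 CPM with PGE2, and the groups did not overlap. That rise was 0.35 (SE 0.0645, edgeR adjusted p = 0.00211), and it was called in all 8 fits that left out 1 library, but not in 1 fit of all 16 samples (adjusted p = 0.0741). In stimulated cells, at 82.0, 88.7, 110 and 115 CPM without and 112, 118, 152 and 175 CPM with PGE2, the difference of 0.50 was larger but its SE was 0.160 (edgeR adjusted p = 0.0794). With the replicate block it was 0.49 (SE 0.0429, edgeR adjusted p = 1.70e-05), and it was also called without stimulated PGE2 replicate 1 (adjusted p = 0.0290), by DESeq2 (0.0262), without a filter on low counts (0.0374) and in 1 fit of all 16 samples (0.0158).

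Zc3h12a differed by 0.21 (SE 0.0729, edgeR adjusted p = 0.0511) in unstimulated and by -0.15 (SE 0.0799, edgeR adjusted p = 0.260) in stimulated cells, and its groups overlapped in both. With the replicate block both values passed, at adjusted p of 0.0153 for 0.21 and 0.0258 for -0.15. In unstimulated cells the value also passed without PGE2 replicate 4 (adjusted p = 0.0275), by DESeq2 (0.0415), with RLE (0.0462) or upper-quartile factors (0.0416) and with at least 10 counts in every sample (0.0439). Zc3h12c, at 26 to 82 counts without and 37 to 61 counts with PGE2 in stimulated cells, differed by 0.24 with an SE of 0.245 (edgeR adjusted p = 0.557).

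Neither Roquin gene passed the test for PGE2. Rc3h1 differed by -0.02 (SE 0.110, edgeR adjusted p = 0.914) in stimulated and by -0.01 (SE 0.111, edgeR adjusted p = 0.942) in unstimulated cells. Rc3h2 differed by 0.10 (SE 0.0796, edgeR adjusted p = 0.438) and 0.09 (SE 0.0635, edgeR adjusted p = 0.316).

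**Figure D3:**
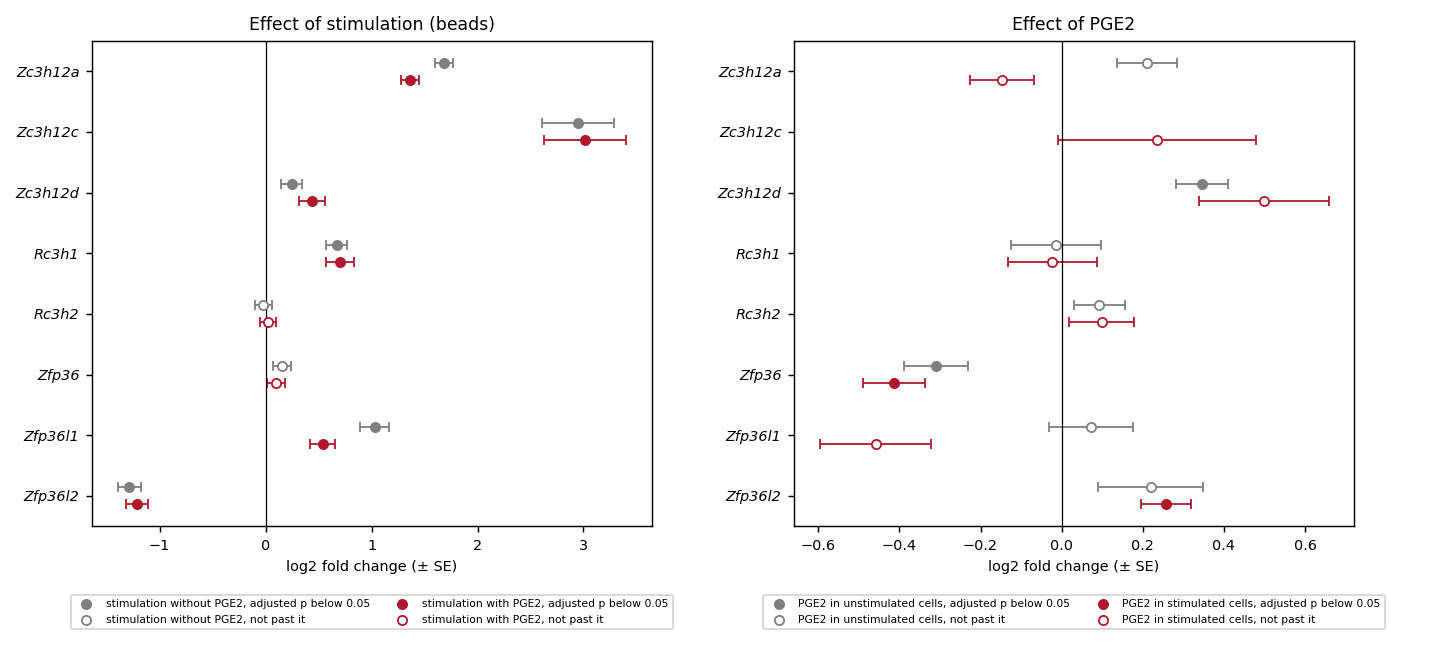
Log2 fold changes (points) with their SE (bars) for stimulation on the left and for PGE2 on the right, on axes of different width; filled points have an edgeR adjusted p below 0.05. Stimulation effects run from -1.29 to 3.02 and PGE2 effects from -0.46 to 0.50. The value of 3.02 is that of Zc3h12c, which entered the stimulation tests only through its stimulated libraries. Zc3h12c has no value for PGE2 in unstimulated cells because it was not tested there.

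Whether the PGE2 difference depended on stimulation was tested as an interaction over all 16 samples. None of the 8 genes was called by edgeR or DESeq2, where 0.517% of 15096 genes had a higher and 0.232% a lower PGE2 effect in stimulated cells and 0.232% also passed a log2 difference of 1. At an unadjusted p below 0.05 the edgeR fit held 1415 genes, among them Zc3h12a and Zfp36l1. Zfp36l1 had the largest value of the 8, -0.52 (SE 0.193, edgeR adjusted p = 0.340). With the replicate block, which called 1.79% of genes higher and 0.914% lower, Zfp36l1 was the 1 gene of the 8 that passed (-0.52, SE 0.0691, edgeR adjusted p = 0.00151). For Zc3h12a the interaction was -0.35 (SE 0.115, edgeR adjusted p = 0.249), and its adjusted p with the block was 0.0807. The block takes the number as a pair across all 4 groups. For stimulation with PGE2, however, numbers 2 and 4 correlated less with their own number (r of 0.0439 and 0.0911) than with another (0.113 and 0.157).

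The opposite moves within the ZFP36 family changed its make-up. As a share of the summed FPKM of its 3 genes, Zfp36l2 made up 71.6% ± 1.13 in unstimulated untreated, 76.1% ± 1.47 in unstimulated PGE2, 40.2% ± 1.78 in stimulated untreated and 52.2% ± 3.67 in stimulated PGE2 samples. In stimulated cells the shares were 38.7% to 42.3% without and 48.2% to 56.8% with PGE2, so they did not overlap. Zfp36l1 made up 13.3% ± 0.655, 12.8% ± 0.437, 36.8% ± 3.86 and 29.2% ± 3.08 in the same order of groups, and Zfp36 15.0% ± 0.600, 11.1% ± 1.09, 22.9% ± 2.10 and 18.6% ± 0.952. The summed level itself was 145 ± 22.9, 158 ± 25.0, 107 ± 11.2 and 97.6 ± 5.34 FPKM.

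**Figure D4:**
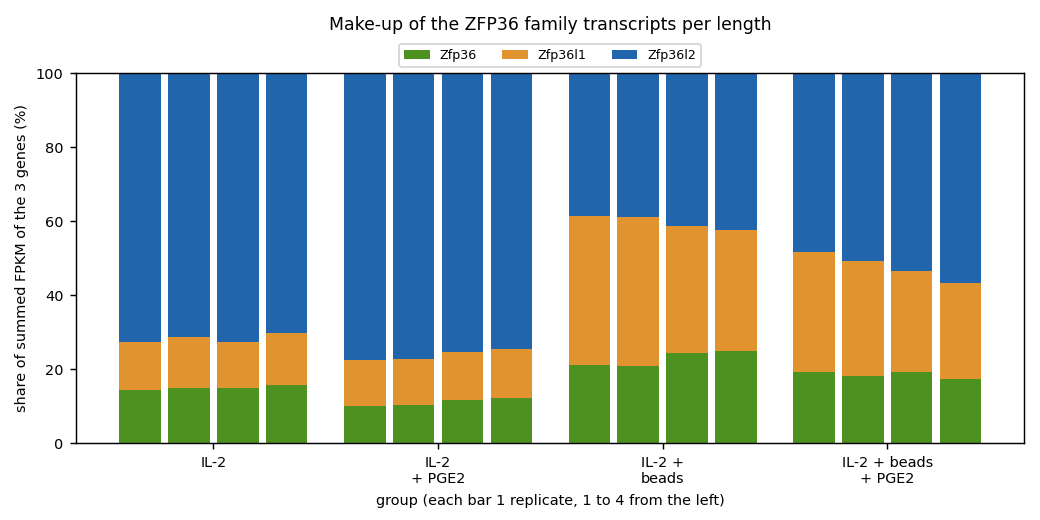
Share of the summed FPKM of Zfp36, Zfp36l1 and Zfp36l2 taken by each gene, with 1 stacked bar per replicate. Zfp36l2 takes 70.1% to 77.4% in unstimulated samples, 38.7% to 42.3% in stimulated untreated samples and 48.2% to 56.8% in stimulated PGE2 samples.

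The Regnase family changed in a different way, since its sum rose with stimulation. It was 27.4 ± 1.64 FPKM in unstimulated untreated, 33.8 ± 0.784 in unstimulated PGE2, 49.7 ± 2.77 in stimulated untreated and 56.3 ± 5.20 FPKM in stimulated PGE2 samples. Zc3h12a made up 29.9% ± 0.781 and 27.98% ± 2.44 of it in unstimulated and 53.4% ± 5.64 and 42.6% ± 6.24 in stimulated cells without and with PGE2, and nearly all of the rest was Zc3h12d. The Roquin sum was 9.30 ± 1.04 FPKM in unstimulated untreated and 13.2 ± 1.46 FPKM in stimulated untreated samples, and Rc3h1 made up 68.8% ± 1.31 and 78.1% ± 0.568 of it. These shares depend on the gene lengths used, 11308 bases for Rc3h1 and 19624 for Rc3h2. Without scaling to length, the means in unstimulated untreated samples were 76.1 CPM for Rc3h1 and 59.8 CPM for Rc3h2.

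The proteins that carry out the decay were examined as lists written from general knowledge. Of 20 genes of the CCR4-NOT complex, its partners and other poly(A) nucleases, 6 rose and 8 fell on stimulation without PGE2, and 7 and 8 with it. Over all genes 31.7% rose and 34.8% fell without PGE2 and 32.5% and 31.7% with it, so the counts of this list, and of the decapping and control lists that follow, are to be read against about 1 gene in 3 in each direction. Tob1, an adaptor of CCR4-NOT, fell by 1.197 on the log2 scale (23.9 ± 1.39 to 10.6 ± 0.983 CPM, edgeR adjusted p = 1.89e-07), whereas Pabpc4, a poly(A)-binding protein, rose by 0.96 (212 ± 7.18 to 415 ± 43.7 CPM, edgeR adjusted p = 9.59e-07). Pan2 and Pan3, subunits of the deadenylase that starts poly(A) removal, fell by 0.71 and 0.61 (edgeR adjusted p = 4.22e-05 and 2.47e-06). Cnot6l, a catalytic subunit, fell by 0.56 on stimulation both without and with PGE2 (edgeR adjusted p = 3.25e-05 and 0.000104).

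Under PGE2 the same list was mostly not called. Over all genes 6.04% rose and 3.8% fell in stimulated cells (19.1% and 20.7% with the replicate block). In unstimulated cells 12.9% rose and 15.5% fell (23.6% and 24.2% with the block). The PGE2 counts of this list and of the lists that follow are to be read against these shares. In stimulated cells 0 of 20 passed (edgeR; 5 had an unadjusted p below 0.05, and 1 rose and 1 fell by DESeq2, 3 and 3 with the replicate block), and in unstimulated cells Tob1 (0.23, edgeR adjusted p = 0.0473) and Btg2 (0.40, edgeR adjusted p = 0.00778) rose and Pabpc4 fell by 0.36 (edgeR adjusted p = 0.00115), with 7 higher and 5 lower under the block. Only 1 of the list was called higher in 6 of the 8 fits without 1 library (all but those without unstimulated untreated replicate 1 or unstimulated PGE2 replicate 4). Btg2, an antiproliferative partner of the deadenylases, was the 1 gene of the list with a called interaction (-0.58, SE 0.128, edgeR adjusted p = 0.0415). No gene of the list had a called interaction in 12 of the 16 fits that left out 1 library (all but those without unstimulated untreated replicate 1, unstimulated PGE2 replicate 4 or stimulated PGE2 replicate 1 or 4) or in any of 3 limma fits.

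Of 17 genes of decapping and 5′ to 3′ decay, 6 rose and 8 fell on stimulation without PGE2, and 5 and 7 with it. Pnrc1 and Pnrc2, which bind the decapping machinery, fell by 1.28 and 0.81 (edgeR adjusted p = 1.01e-07 and 2.93e-07), Ddx6, an RNA helicase of P-bodies, fell by 0.73 (edgeR adjusted p = 4.50e-05) and Xrn1, the exonuclease, fell by 0.65 (edgeR adjusted p = 1.94e-05). PGE2 raised Pnrc1 in stimulated cells from 82.5 ± 6.10 to 125 ± 13.2 CPM (0.61, SE 0.0873, edgeR adjusted p = 0.00253), and it was the 1 gene of 17 called there (4 higher and 2 lower with the block). In unstimulated cells Pnrc1 (0.39) and Edc4 (0.20) rose and Eif4enif1 fell by 0.18, with edgeR adjusted p of 0.0125, 0.0206 and 0.0229 (3 and 3 with the block). No gene of the list was called lower without unstimulated untreated replicate 2 or 4 or unstimulated PGE2 replicate 2 or 3, or without a filter on low counts, and 1 was called higher in place of 2 without unstimulated untreated replicate 1 or 4 or unstimulated PGE2 replicate 3.

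Of 18 genes that control the member proteins, 6 rose and 5 fell on stimulation without PGE2, and 9 and 5 with it. Malt1, the protease, rose from 236 ± 6.91 to 463 ± 54.9 CPM (0.96, SE 0.0811, edgeR adjusted p = 5.05e-07). Of the p38 axis, which phosphorylates ZFP36 proteins, Mapk14 fell by 0.96 (edgeR adjusted p = 3.30e-07) and Mapkapk3 rose by 1.15 (edgeR adjusted p = 4.06e-08). With PGE2 none of the 18 was called in stimulated cells (edgeR; 2 had an unadjusted p below 0.05, and 0 rose and 1 fell by DESeq2, 1 and 4 with the block). In unstimulated cells 1 rose and 5 fell (5 and 10 with the block), and fits without 1 library lowered 2 to 6, the fewest without unstimulated untreated replicate 2. Btrc, a subunit of the ubiquitin ligase that marks Regnase-1, rose by 0.44 (edgeR adjusted p = 0.000671), and Ywhaq fell by 0.30 (edgeR adjusted p = 0.00146) and Irak1 by 0.23 (edgeR adjusted p = 0.00753).

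Of 12 tested genes for other AU-rich element proteins and related RNases, 5 rose and 4 fell on stimulation without PGE2, and 6 and 3 with it. Over all genes 31.7% rose and 34.8% fell without PGE2, and 32.5% and 31.7% with it. For PGE2 in unstimulated cells the shares were 12.9% and 15.5%. Elavl1, whose protein HuR stabilizes AU-rich mRNAs, rose by 0.78 (105 ± 8.88 to 181 ± 23.0 CPM, edgeR adjusted p = 1.86e-05), and Khnyn, a relative of the Regnases by its RNase domain, fell by 1.39 (132 ± 13.9 to 51.0 ± 11.2 CPM, edgeR adjusted p = 1.43e-06). In unstimulated cells PGE2 raised Arid5a, which protects mRNAs from Regnase-1, from 279 ± 28.3 to 436 ± 42.8 CPM (0.66, SE 0.0907, edgeR adjusted p = 0.000286) and Khnyn by 0.52 (edgeR adjusted p = 0.00139), and Hnrnpd, the AUF1 gene, fell by 0.41 (edgeR adjusted p = 0.000227) and Tial1 by 0.16 (edgeR adjusted p = 0.0408). Of the list 1 gene was called lower in place of 2 in 6 of the 8 fits without 1 library (all but those without replicate 1 of either group). In stimulated cells 0 of the 12 were called (edgeR; 4 had an unadjusted p below 0.05, and 1 rose and 2 fell by DESeq2, 2 and 4 with the block).

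Described target mRNAs of these proteins, 30 genes that include Zfp36 and Zc3h12a themselves, were followed as well. Stimulation without PGE2 raised 25 and lowered 2 (Ctla4 and Gata3) of 28 tested, with a median log2 fold change of 2.21 beside -0.03 over all genes, and with PGE2 24 rose and 0 fell. Among the unstimulated samples only 26 of the 30 passed the filter on low counts. For targets that passed only through stimulated libraries the filter favoured a rise, so their calls lend it no support. Over all genes 31.7% rose and 34.8% fell without PGE2, and 32.5% and 31.7% with it. Ifng rose from 10.5 ± 10.7 to 994 ± 301 CPM, Il2 from 1.55 ± 1.30 to 101 ± 47.3 CPM and Ccl4 from 12.8 ± 7.02 to 774 ± 311 CPM. Most of these mRNAs and those of Zc3h12a and Zfp36l1 were thus high in the same samples.

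Over all genes 3.8% fell and 6.04% rose with PGE2 in stimulated cells, and the median was -0.01. PGE2 there lowered 5 and raised 2 of 28 tested targets, with a median of -0.29. The 4 cytokine and chemokine genes among them were Ccl3 (244 ± 84.1 to 61.4 ± 44.9 CPM, fell by 1.98, SE 0.496, edgeR adjusted p = 0.0345), Il2 (101 ± 47.3 to 25.97 ± 16.6 CPM, fell by 1.95, edgeR adjusted p = 0.0305), Csf2 (26.9 ± 4.78 to 9.67 ± 4.61 CPM, fell by 1.47, edgeR adjusted p = 0.0173) and Tnf (249 ± 54.7 to 99.1 ± 39.3 CPM, fell by 1.32, edgeR adjusted p = 0.0142), and the fifth gene was Zfp36. Every PGE2 sample lay below every untreated one for each of these. The 2 that rose were the receptor genes Ctla4 (0.93, edgeR adjusted p = 0.0225) and Tnfrsf9 (0.30, edgeR adjusted p = 0.0240). Leaving out stimulated untreated replicate 2 or stimulated PGE2 replicate 3 left 1 lower and 0 higher, and the other fits without 1 library gave 3 to 9 lower and 1 to 3 higher. Limma without a filter also gave 1 lower and 0 higher. With the replicate block 16 fell and 3 rose, where 20.7% of all genes fell and 19.1% rose.

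In unstimulated cells PGE2 lowered 12 and raised 3 of 26 tested targets (14 and 10 with the block). Over all genes 15.5% fell and 12.9% rose (24.2% and 23.6% with the block), so the raised count is near that share. Tnf fell from 24.2 ± 4.08 to 10.3 ± 2.46 CPM (fell by 1.21, SE 0.171, edgeR adjusted p = 0.000357), Ccl4 fell by 2.08 (edgeR adjusted p = 0.00408), Ifng by 2.05 (edgeR adjusted p = 0.0431) and Zfp36 by the 0.31 given above. Tnfrsf9 rose by 0.92 (edgeR adjusted p = 0.0498). Fits without 1 library lowered 4 to 12 of the targets and raised 2 to 4, with the fewest lowered without unstimulated PGE2 replicate 2. Limma without a filter lowered 2 and raised 1. No target had a called interaction by edgeR or DESeq2, and 4 had an unadjusted edgeR p below 0.05. With the block 2 were lower, and without stimulated PGE2 replicate 4 the interaction of 2 was higher.

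Sorted by what their 3′ UTRs held, 20 of the 30 targets had at least 1 UAUUUAU and 10 had none; this split was made after the values were seen and carries no test. In stimulated cells PGE2 lowered 5 and raised 0 of 18 tested targets with the heptamer (median -0.53), and lowered 0 and raised 2 of 10 without it (median -0.17). Over all genes 3.8% fell and 6.04% rose. The 5 lowered are the genes already named above, so the split restates those calls. In unstimulated cells PGE2 lowered 9 and raised 1 of 17 with the heptamer (median -0.31), and lowered 3 and raised 2 of 9 without it (median 0.15). Over all genes 15.5% fell and 12.9% rose there. The 5 targets with a stem-loop and no heptamer (Icos, Tnfrsf4, Nfkbiz, Nfkbid and Zc3h12a) had a median of -0.15 in stimulated cells, where none was called, and of 0.15 in unstimulated cells, where Nfkbid and Nfkbiz were called lower (-0.49 and -0.19, edgeR adjusted p = 0.0255 and 0.0448).

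**Figure D5:**
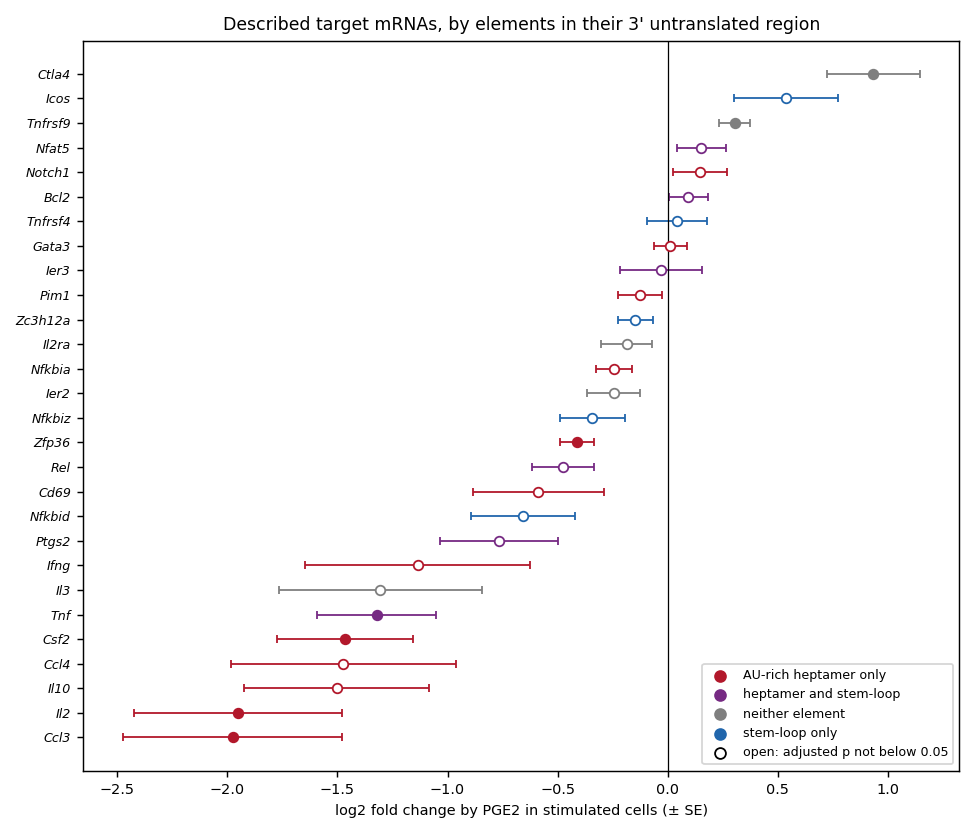
Log2 fold change by PGE2 in stimulated cells (points, bars SE) for the 28 tested target genes, coloured by the elements found in the 3′ UTR; filled points have an edgeR adjusted p below 0.05. The 5 genes called lower (Ccl3, Il2, Csf2, Tnf and Zfp36) hold the heptamer, and in the 2 called higher (Ctla4 and Tnfrsf9) the search found neither element. Of the 30 targets 20 hold the heptamer, and of all genes 3.8% fell and 6.04% rose. The split was made after the values were seen and carries no test.

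Promoters were searched because Rc3h1, Zfp36l1 and Zc3h12a rose together on stimulation. RefSeq (GRCm38.p6) gave 8 start sites for 7 of the 8 genes, and the 250 bases before each were read on both strands for a cAMP response element (TGACGTCA, in 1.55% of 32851 promoters), its core (TGACG, 17.8%), an AP-1 site (TGANTCA, 6.75%), an NF-kB site (7.25%) and a CArG box (1.47%). The core lies within the full element, so these overlap. An AP-1 match stood 133 bases before the start of Rc3h1 and 129 bases before that of Zfp36l1, and a CArG match 58 bases before that of Zfp36. One start site of Zc3h12c had the cAMP element core and the other an NF-kB match. No match was found in the windows of Zc3h12a, Zc3h12d and Rc3h2. The AP-1 matches (capitals) are shown in the whole windows of Rc3h1 and Zfp36l1, the genes that held one. Zc3h12a, Zc3h12c and Zc3h12d were also called higher on stimulation, and their windows held no AP-1 match. A link between the match and the rise was not tested.

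Rc3h1, chr1:160906161-160906410, plus strand, GRCm38.p6: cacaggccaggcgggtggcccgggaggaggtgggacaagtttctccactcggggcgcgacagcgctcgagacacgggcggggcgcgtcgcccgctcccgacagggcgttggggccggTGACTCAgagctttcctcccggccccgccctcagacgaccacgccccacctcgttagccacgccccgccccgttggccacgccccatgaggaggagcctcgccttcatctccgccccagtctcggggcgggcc

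Zfp36l1, chr12:80113014-80113263, minus strand, GRCm38.p6: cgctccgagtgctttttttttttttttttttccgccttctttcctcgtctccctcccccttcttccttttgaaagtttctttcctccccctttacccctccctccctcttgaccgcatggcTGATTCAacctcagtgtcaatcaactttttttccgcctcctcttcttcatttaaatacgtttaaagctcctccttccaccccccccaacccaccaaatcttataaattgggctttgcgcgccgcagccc

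The genes most like each member across the 16 samples were listed by Pearson r of log2 CPM among 9912 genes, as a description, since all points share the same 4 groups. For Zc3h12a they were Relb (0.993), Nfkb2 (0.993) and Pim1 (0.992), of which Pim1 was also on the target list. For Zfp36l2 they were Asap1 (0.996), Ctdsp1 (0.995) and Acss1 (0.994), and for Zfp36l1 Pou2f2 (0.980), Ado (0.979) and Stk40 (0.979). For Rc3h1 they were Snx27 (0.986), Akap10 (0.986) and Plekha1 (0.983). Neighbours of the other 3 members compared had lower r. Zfp36 had Itgb2 (0.944), Id3 (0.936) and Lat (0.932), Zc3h12d had Inf2 (0.927), Plxnc1 (0.924) and Tubb6 (0.921), and Rc3h2 had Ifit1bl1 (0.849) and Itm2a (0.805). Among the members themselves, r was 0.89 between Zfp36l1 and Rc3h1, 0.90 between Zc3h12a and Rc3h1 and -0.93 between Zc3h12a and Zfp36l2, while Zfp36 and Zc3h12d, which differed in opposite directions with PGE2, had -0.51.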

How the data were processed

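Per the labels, RNA from 16 CD8+ T cell samples was poly(A)-selected and sequenced in paired-end mode. The authors aligned reads to GRCm38 with HISAT2 2.0.5 and counted them per gene with featureCounts 1.5.0-p3. The deposited counts are whole numbers without normalization, and the deposited FPKM values are scaled to library size and kb of exon. Strand use and annotation release are not given in the sources used here.

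Counts were tested with edgeR 4.0.16 (R 4.3.3): filterByExpr at a minimum count of 10, TMM, glmQLFit and glmQLFTest, two-sided, Benjamini-Hochberg adjustment over all genes tested. Each pairwise fit held the 8 samples compared, and the interaction all 16. Called genes had an adjusted p below 0.05, and DEGs also a fold change of at least 2. SE values are on the log2 scale. CPM values, other than those of Gm26669, are scaled by TMM factors (0.880 to 1.09).

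Named genes are the 8 members, up to 4 genes per list and comparison with the largest called change and a mean of at least 5 CPM, and the 3 genes most like each member. A few genes that this rule or the marker lists name are not reported here. Members and lists were chosen with earlier results of these data known. Called targets outside this rule (Ctla4, Gata3 and, in stimulated cells, Tnfrsf9) and the stem-loop targets were named after their values were seen. Same-numbered replicates correlated in their deviations from the group means, at r of 0.190 to 0.423 for PGE2 in stimulated cells, 0.137 to 0.444 for PGE2 in unstimulated cells and 0.112 to 0.359 for stimulation without PGE2, so the numbers were taken as pairs there from the data alone. With other numbers the highest r was 0.180 to 0.250, 0.0562 to 0.124 and 0.0334 to 0.125 in the same order. It exceeded the r with the own number for number 2 of PGE2 in stimulated cells. For stimulation with PGE2 the lowest r with the own number was 0.0439, and numbers 2 and 4 correlated more with another number. Alternatives were DESeq2 1.42.0, RLE and upper-quartile factors, other filters, the replicate block, limma 3.58.1 on log2 FPKM, a single model for all 16 samples, and omission of each replicate. The fits were tested on simulated data. 3′ UTR sequences came from GENCODE M21, in which the 8 genes have the coordinates of the count table.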

Additional observations from a re-analysis of the deposited data

How the results depend on the processing

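On stimulation Zc3h12a, Rc3h1, Zfp36l1 and Zfp36l2 kept their calls in every fit without 1 library. So did Zc3h12c, but the filter on low counts favoured its rise, so its calls lend no support. With Zc3h12c included, 5 to 6 of the 8 genes without and 6 with PGE2 were called in those fits. In the main fits 31.7% of all genes rose and 34.8% fell without PGE2, and 32.5% and 31.7% with it. For PGE2 in stimulated cells edgeR called 2 of the 8 genes, DESeq2 4, the replicate block 5 and each of 3 limma fits 1, and fits without 1 library called 1 to 4. Of all genes, edgeR called 6.04% higher and 3.8% lower there, and the block 19.1% and 20.7%. DESeq2 called 1178 genes higher and 888 lower, where edgeR called 841 and 529. Shares for the other fits are not given here. For PGE2 in unstimulated cells 2 were called, 4 with the replicate block, 1 by limma on log2(FPKM + 1) without a filter and 1 in the fit of all 16 samples, and fits without 1 library called 1 to 3. Of all genes, edgeR called 12.9% higher and 15.5% lower there, and the block 23.6% and 24.2%. The interaction was called for 0 of the 8 genes (0.517% of all genes higher and 0.232% lower). With the replicate block it was called for 1 (1.79% and 0.914% of all genes). The block left the count for stimulation with PGE2 at 6. The cause of these shifts was not tested. Upper-quartile scaling moved the median of all genes by -0.127 on stimulation with PGE2.

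Directions turned only for values near 0 that no such fit called. Rc3h2 on stimulation without PGE2 was 0.0171 by DESeq2 and 0.0132 with RLE factors. With PGE2 it was -0.104 with upper-quartile factors, -0.0280 without a filter, -0.0183 with at least 10 counts in every sample, and -0.00912 and -0.0125 by limma on log2(FPKM + 1), with or without a filter, and log2(FPKM + 0.1). Zfp36 there was -0.0336 with upper-quartile factors. The interaction of Rc3h1 was -0.0164 by DESeq2, -0.0161 with RLE and -0.0144 with upper-quartile factors, -0.0302 without a filter, and -0.0172 and -0.0177 by limma. That of Rc3h2 was -0.00154 by DESeq2, -0.000311 with RLE factors, -0.0167 without a filter, and -0.00147 and -0.00226 by limma. Fits without 1 library took the interaction from -0.0950 to 0.0974 for Rc3h1, -0.0284 to 0.0764 for Rc3h2, -0.269 to 0.216 for Zc3h12c and -0.0431 to 0.149 for Zfp36l2. They took the PGE2 value of Rc3h1 from -0.0992 to 0.0475 in stimulated and from -0.104 to 0.0639 in unstimulated cells, that of Zfp36l1 in unstimulated cells from -0.00145 to 0.145, and the stimulation value of Rc3h2 from -0.0814 to 0.0237 without and from -0.0470 to 0.0447 with PGE2. Zc3h12c, with 1 to 12 counts per unstimulated library, was not tested for PGE2 there.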
